A study of Mus musculus with 3 samples.

Results

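Cell cycle brakes were examined in ChIP-seq of mouse cerebral cortex at E13.5, when ventricular zone progenitors divide and produce neurons. The 10 genes were the CDK inhibitors Cdkn1a, Cdkn1b, Cdkn1c, Cdkn2a, Cdkn2b, Cdkn2c and Cdkn2d and the retinoblastoma family members Rb1, Rbl1 and Rbl2. They were chosen by name among the 55450 genes of the GENCODE M21 annotation, and all matched it by symbol. The series held 3 libraries from cortex, 1 each of input chromatin without antibody, of NF-Y-ChIP with an antibody against the NF-YC subunit and of H3K4me3-ChIP. The labels give no genotype, strain or treatment. The input has no peak list here, and the lists of NF-Y-ChIP (733 peaks) and H3K4me3-ChIP (18816 peaks) were used. A peak was assigned to a gene when it lay inside the gene or within 5 kb upstream, which is the rule of the study. Each antibody had 1 library, so there is no replicate error and no test, and read depth is unknown. In bulk tissue, fewer marked cells and a weaker mark per cell cannot be told apart.

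Progenitors leave the cell cycle when cyclin-dependent kinases are held back. Inhibitors of the CIP/KIP family (Cdkn1a, Cdkn1b and Cdkn1c) bind a broad range of cyclin-CDK complexes, and those of the INK4 family (Cdkn2a to Cdkn2d) bind Cdk4 and Cdk6 and keep them from D-type cyclins. The retinoblastoma proteins act one step further on. In their unphosphorylated form they bind E2F factors and repress genes of the S phase, and phosphorylation by CDKs releases the E2Fs. H3K4me3 is a histone mark of promoters that are active or poised. NF-Y is a trimer of NF-YA, NF-YB and NF-YC that binds the CCAAT box in promoters, including those of many cell cycle genes.

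All 10 genes carried H3K4me3 and none had an NF-Y-ChIP peak. By the gene rule, an H3K4me3-ChIP peak was present at 10 of 10 genes, against 65.4% of the 21938 protein-coding genes on chromosomes 1 to 19, X and Y. With the distance limited to 1 kb on either side of any transcription start site (TSS), 10 of 10 still had a peak, against 62.8%. An NF-Y-ChIP peak was present by the gene rule at 0 of 10 genes, against 3.69% of protein-coding genes, and with summits limited to 1 kb from a TSS the numbers were 0 of 10 and 3.17%. With so low a share in all genes, the absence at 10 genes is close to the background. A peak list holds only regions past the threshold of the caller, so weaker enrichment at these genes was not detectable here.

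The reference sequences upstream of 4 of the genes are given first. They are shown because Cdkn1b and Cdkn2d were members with CCAAT boxes upstream of a coding start site, and Cdkn2a, Cdkn2d and Rbl1 those with an E2F site there. E2f1 and Foxm1, 2 genes of the same pathway that did have an NF-Y-ChIP peak, are given for comparison and were chosen after their values were seen. Each line holds the 200 bases before the first coding TSS, 5′ to 3′ on the strand of the gene, from the GRCm38.p6 reference. Capitals mark CCAAT or ATTGG, E2F sites (TTT, then a pair of bases that are C or G, then CGC) and cell cycle homology regions (CHR, TTTGAA or TTCGAA), all searched on both strands.
Cdkn1b (chr6:134920201-134920400, plus strand): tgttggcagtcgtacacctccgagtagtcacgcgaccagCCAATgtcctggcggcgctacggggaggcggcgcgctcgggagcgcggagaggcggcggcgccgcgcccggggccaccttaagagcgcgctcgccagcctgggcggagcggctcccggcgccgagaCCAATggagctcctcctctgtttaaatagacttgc
Cdkn2a (chr4:89294654-89294853, minus strand): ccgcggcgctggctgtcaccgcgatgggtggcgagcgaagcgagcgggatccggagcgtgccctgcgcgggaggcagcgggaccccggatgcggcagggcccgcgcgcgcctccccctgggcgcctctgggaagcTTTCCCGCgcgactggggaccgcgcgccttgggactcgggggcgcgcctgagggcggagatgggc
Cdkn2d (chr9:21291408-21291607, minus strand): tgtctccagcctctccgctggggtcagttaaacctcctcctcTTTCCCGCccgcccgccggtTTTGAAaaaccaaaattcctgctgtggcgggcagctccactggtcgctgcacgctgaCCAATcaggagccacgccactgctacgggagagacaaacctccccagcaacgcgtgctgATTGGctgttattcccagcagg
Rbl1 (chr2:157204513-157204712, minus strand): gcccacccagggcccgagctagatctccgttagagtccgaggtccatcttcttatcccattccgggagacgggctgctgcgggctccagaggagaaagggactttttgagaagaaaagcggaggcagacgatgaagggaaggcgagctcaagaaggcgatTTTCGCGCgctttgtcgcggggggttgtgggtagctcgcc
E2f1 (chr2:154569893-154570092, minus strand): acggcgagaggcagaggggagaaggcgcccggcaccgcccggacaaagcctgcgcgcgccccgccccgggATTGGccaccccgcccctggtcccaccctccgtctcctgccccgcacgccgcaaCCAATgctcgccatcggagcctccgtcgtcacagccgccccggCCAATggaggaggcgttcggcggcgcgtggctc
Foxm1 (chr6:128362767-128362966, plus strand): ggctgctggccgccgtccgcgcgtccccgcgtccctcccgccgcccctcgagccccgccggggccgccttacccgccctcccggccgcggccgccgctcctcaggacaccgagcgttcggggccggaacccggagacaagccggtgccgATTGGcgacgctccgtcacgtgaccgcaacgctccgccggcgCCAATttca

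In this library, H3K4me3 values were higher at the retinoblastoma genes than at the INK4 genes, a description with no test. Fold enrichment, the ratio of the signal at the peak summit to the local background, was taken for the strongest peak within 1 kb of a TSS, called the promoter peak here. In the retinoblastoma family it was 72.0 for Rb1, the highest of the 10 genes, 56.4 for Rbl2 and 43.9 for Rbl1. These were at percentiles 95.9, 80.4 and 58.2 of the 13767 protein-coding genes with a peak within 1 kb of a TSS, whose median was 39.9 (interquartile range 25.7 to 52.7). Among the CIP/KIP genes, Cdkn1b stood apart with 57.2 (percentile 81.6), and Cdkn1a and Cdkn1c had 24.5 and 22.9 (percentiles 23.4 and 21.1). The INK4 genes all lay below the median of marked genes, at 32.9 for Cdkn2c, 31.3 for Cdkn2d, 19.1 for Cdkn2a and 12.8 for Cdkn2b (percentiles 37.5, 34.6, 16.1 and 9.37). The value of Cdkn2a belongs to the start site of p19Arf, which is not an INK4 protein. Its start site for the CDK inhibitor p16Ink4a was 12221 bp from the nearest H3K4me3-ChIP peak. The ranges of the retinoblastoma and INK4 families did not overlap, and the CIP/KIP values spanned both. Without replicates, neighbours in this order such as Cdkn2c and Cdkn2d, or Cdkn1b and Rbl2, cannot be ranked. The median over the 10 genes was 32.1.

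**Figure D1:**
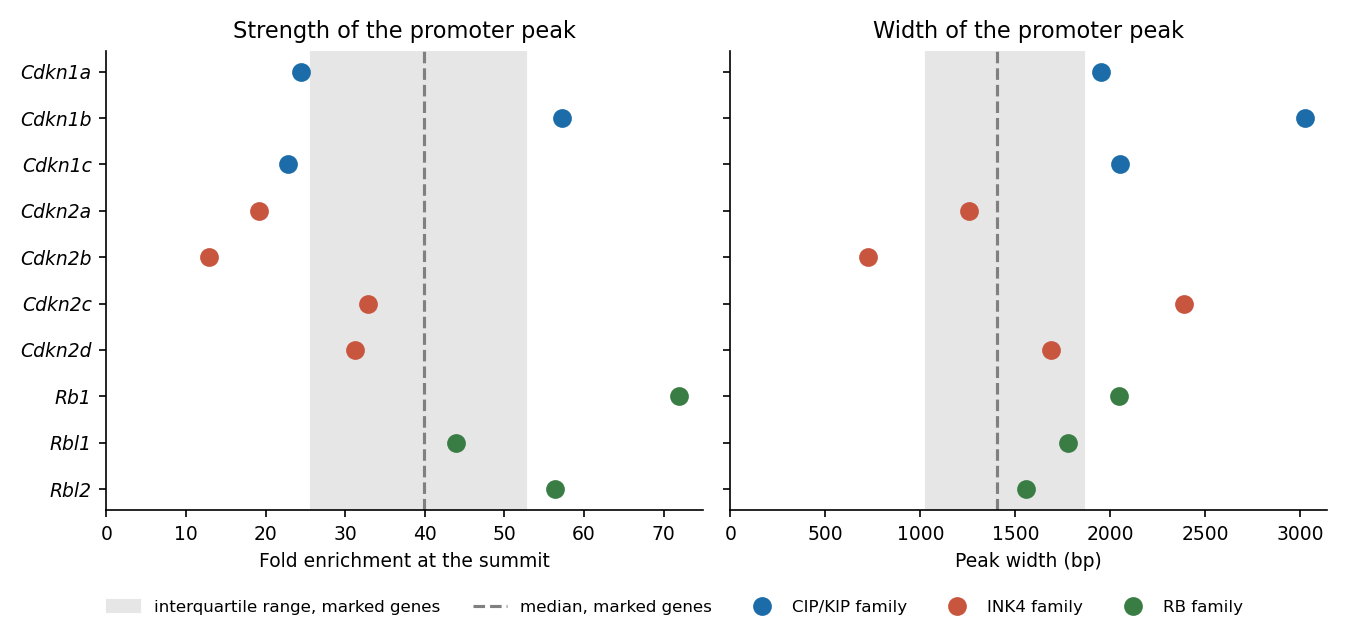
Fold enrichment at the summit (left) and width in bp (right) of the promoter H3K4me3-ChIP peak of each gene, 1 point per gene from 1 library, coloured by family, with the median (dashed) and interquartile range (grey) of 13767 marked protein-coding genes. The retinoblastoma genes lie at 43.9 to 72.0 and the INK4 genes at 12.8 to 32.9, while Cdkn1b has the widest peak at 3023 bp. The point of Cdkn2a is the peak at its Arf start site, not at that of Ink4a.

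Width followed another order than strength. The promoter peak of Cdkn1b was 3023 bp wide (percentile 96.1 of the marked genes), and that of Cdkn2c was 2388 bp (percentile 89.6). The peaks of Cdkn1c (2049 bp), Rb1 (2044 bp) and Cdkn1a (1951 bp) were next. Rbl1 (1778 bp), Cdkn2d (1689 bp), Rbl2 (1558 bp) and Cdkn2a (1258 bp) lay within the interquartile range of 1029 to 1864 bp, and Cdkn2b (727 bp) lay below it. Cdkn1a and Cdkn1c therefore combined low fold enrichment with a width above the upper quartile, whereas Cdkn2b was low in both.

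Rb1 encodes the retinoblastoma protein itself, the main brake on E2F at the G1/S boundary. It spans chr14:73183673-73325822 on the minus strand (GRCm38). The promoter peak ran from 73324665 to 73326708 and ranked 473 of 18816 by fold enrichment, with the summit 304 bp downstream of the first coding TSS at 73325822. A second peak inside Rb1, from 73237897 to 73239969 with a fold enrichment of 16.6, had its summit 232 bp downstream of a TSS of Lpar6, a lysophosphatidic acid receptor gene that lies within Rb1 on the other strand. This peak was thus assigned to Rb1 by the gene rule, while the nearest TSS was that of Lpar6.

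Rbl1 encodes p107 and Rbl2 encodes p130, the relatives of the retinoblastoma protein that join E2F4 and the MuvB complex in repressor complexes. Rbl1 spans chr2:157145893-157204534 on the minus strand. Its peak, the only one assigned to it, ran from 157203535 to 157205312 with the summit 178 bp downstream of the coding TSS. Rbl2 spans chr8:91070057-91123844 on the plus strand. The peak of Rbl2 ran from 91069482 to 91071039, with the summit 250 bp downstream of the first coding TSS. Both summits lay in coding sequence, and both peaks extended to either side of the TSS, 800 bp upstream in Rbl1 and 575 bp in Rbl2.

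Cdkn1b encodes p27, the inhibitor best known for holding differentiated cells in quiescence. It spans chr6:134920401-134925513 on the plus strand. The promoter peak ran from 134919675 to 134922697, from 726 bp upstream to 2296 bp downstream of the TSS, and its summit at 134921204 lay in coding sequence. A further peak of 748 bp with a fold enrichment of 11.0 lay upstream, from 134916574 to 134917321, with the summit 3657 bp before the TSS. No other annotated TSS was closer to it.

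Cdkn1c encodes p57, an imprinted inhibitor expressed mainly from the maternal allele, and the peak lists do not separate the alleles. It spans chr7:143458339-143461050 on the minus strand. Its main peak ran from 143458908 to 143460956 and lay wholly inside the gene: its upstream edge was 94 bp and its summit 1472 bp downstream of the first coding TSS. The summit also lay near an antisense gene. From the TSS of Gm44732, an annotated antisense transcript, it lay 171 bp upstream. A weak peak of 354 bp (fold enrichment 4.39) had its summit 4037 bp upstream of Cdkn1c. The secondary upstream peaks of Cdkn1b and Cdkn1c were the outermost within the 5 kb limit. Beyond that limit, the next upstream H3K4me3-ChIP peak was nearest at Cdkn2c, 8.86 kb from the gene with a fold enrichment of 63.0.

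Cdkn1a encodes p21, the inhibitor induced by p53 after DNA damage. It spans chr17:29090976-29100727 on the plus strand and has annotated coding start sites at 29090979, 29093769, 29093781 and 29097900. The mark lay at the internal start sites and not at the first. A peak of 222 bp with a fold enrichment of 4.60 covered the start sites at 29093769 and 29093781, and after a gap of 57 bp the main peak ran from 29093843 to 29095793 with its summit in an intron, 1653 bp downstream of the nearest Cdkn1a start site. The summit was closer to the TSS of AC167363.2, an antisense gene record within Cdkn1a, from which it lay 973 bp upstream. The start site at 29090979 was 2585 bp from the nearest peak, and that at 29097900 was 2107 bp away. When the 5′ end of the gene record alone was taken as the TSS, Cdkn1a was the member without a peak within 1 kb, and 9 of 10 had one.

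Cdkn2a encodes different proteins from separate first exons, p19Arf, which stabilises p53, and p16Ink4a, an inhibitor of Cdk4 and Cdk6. It spans chr4:89274471-89294653 on the minus strand. The only peak, from 89294413 to 89295670, covered the upstream start site at 89294653 (transcript Cdkn2a-202), from which the Arf first exon is read. Its summit lay 509 bp upstream of that site. The downstream start site at 89282192 (Cdkn2a-201), that of Ink4a, was 12221 bp from the nearest H3K4me3-ChIP peak. A peak over 1 of the outermost coding start sites and not the other was common, at 54.9% of 6633 protein-coding genes whose outermost coding start sites were at least 2 kb apart, and 5.99% had a peak over both.

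**Figure D2:**
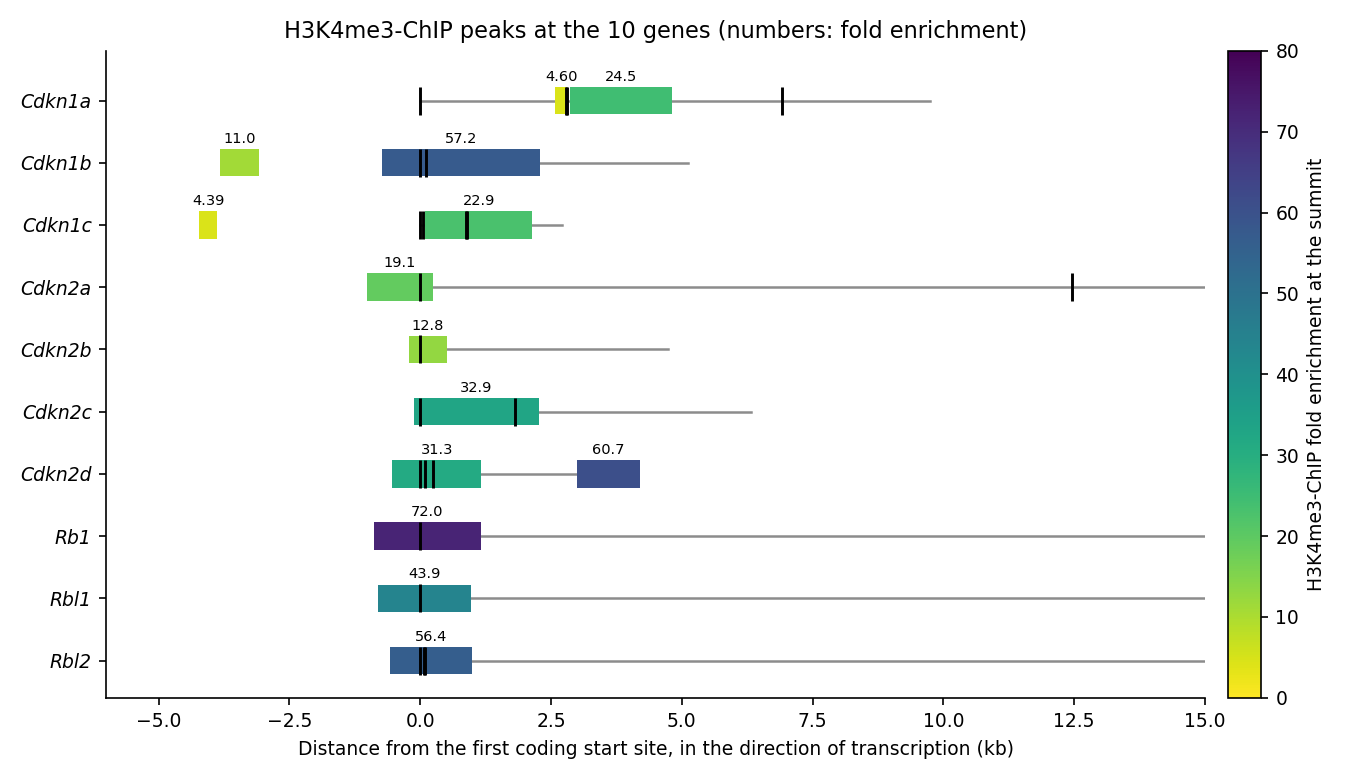
H3K4me3-ChIP peaks (boxes, coloured and numbered by fold enrichment) and coding start sites (black ticks) of the 10 genes, by distance in kb from the first coding start site in the direction of transcription, with the gene body in grey. The peaks of Cdkn1a and the main peak of Cdkn1c begin downstream of the first start site, the second start site of Cdkn2a is unmarked, and the peak of 60.7 at the end of Cdkn2d lies at Kri1. The gene bodies of Cdkn2a and the retinoblastoma genes run past the right edge, as does the peak at Lpar6 inside Rb1.

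Cdkn2b, the neighbour of Cdkn2a on chromosome 4, encodes p15, which responds to TGF-beta signals. It lies from 89306299 to 89311039 on the minus strand. Its peak, from 89310534 to 89311260, was the narrowest and weakest promoter peak of the 10 genes, and its summit lay in the 5′ UTR, 229 bp downstream of the TSS. No other H3K4me3-ChIP peak lay between those of Cdkn2a and Cdkn2b, which were the genes with the lowest fold enrichment of the list.

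Cdkn2c (p18) and Cdkn2d (p19Ink4d) are the INK4 genes expressed during brain development. Cdkn2c spans chr4:109660876-109667189 on the minus strand, and a single peak from 109664924 to 109667311 covered both of its start sites, with the summit between them in the 5′ UTR. Cdkn2d spans chr9:21288410-21291407 on the minus strand. Its promoter peak, from 21290250 to 21291938, covered all 3 start sites. The stronger peak assigned to Cdkn2d by the gene rule, with a fold enrichment of 60.7 from 21287205 to 21288416, overlapped the end of the gene by 7 bp, and its summit was 130 bp downstream of a TSS of Kri1. With the Kri1 and Lpar6 peaks included, 15 H3K4me3-ChIP peaks were assigned to the 10 genes, and 11 of them had their nearest TSS in the member itself. The median length covered by H3K4me3 per gene was 2281 bp.

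Base composition differed between the start sites inside these genes. The ratio of observed to expected CpG was computed in windows from 250 bp upstream to 50 bp downstream of each start site. In Cdkn2a it was 1.04 at the marked Arf start site and 0.442 at the unmarked Ink4a start site. In Cdkn1a it was 0.786 at the marked site at 29093769 and 0.0892 at the unmarked site at 29090979. Cdkn1c did not follow this order: its coding start sites outside the peak, 94 and 40 bp from it, had 1.05 and 0.978, and those covered by it 0.893 and 0.918. The median over 74210 start sites of marked protein-coding genes was 0.601 (interquartile range 0.283 to 0.849). Cdkn2c was marked at low ratios, 0.455 and 0.553, and Rb1 had 1.14 at its coding start site. The part of base composition in the H3K4me3 signal was not tested.

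CCAAT or ATTGG was present in a promoter window (250 bp upstream to 50 bp downstream) of any annotated TSS at 7 of the 10 genes, against 66.5% of marked protein-coding genes. The count depended on the window: it was 4 of 10 from 200 bp upstream to the TSS (58.8% of marked genes) and 3 of 10 at the 5′ end of the gene record only (38.1%), so it lay on either side of the background. In Cdkn1a, Cdkn2a and Cdkn2c the box lay downstream of the start site, and in Rb1 it lay upstream of a retained intron transcript within the gene. Upstream of a coding start site it was present in Cdkn1b, Cdkn1c and Cdkn2d, and the sequences of Cdkn1b and Cdkn2d are shown above. Positions count from 0 at the start site to the first base of the box. Cdkn1b had boxes at −161 and −35 bp, and Cdkn2d at −81 and −22 bp. All 3 genes had a match to the extended NF-Y consensus (CCAAT after a pair of purines and before C or G and a purine), as did 22.6% of marked genes. The retinoblastoma genes had no box within the window of a coding start site.

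A CCAAT box at a marked promoter was seldom accompanied by an NF-Y-ChIP peak anywhere in the genome. Among marked protein-coding genes, 7.96% of those with a box in a promoter window had an NF-Y-ChIP peak by the gene rule, against 1.17% of those without one. The share was 3.44% for genes with 1 box in the window, 9.89% for those with 2 and 26.8% for those with 3 or more, and 17.2% for those with the extended consensus. Cdkn1b and Cdkn1c, with 3 boxes in a window each, and Cdkn2d, with 2, were thus among the many marked CCAAT promoters without a called NF-Y-ChIP peak. The NF-Y-ChIP peaks nearest to the 10 genes lay from 74.4 kb (Rbl1) to 5211 kb (Rb1) away from the 5′ end of the gene, with a median of 468 kb.

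**Figure D3:**
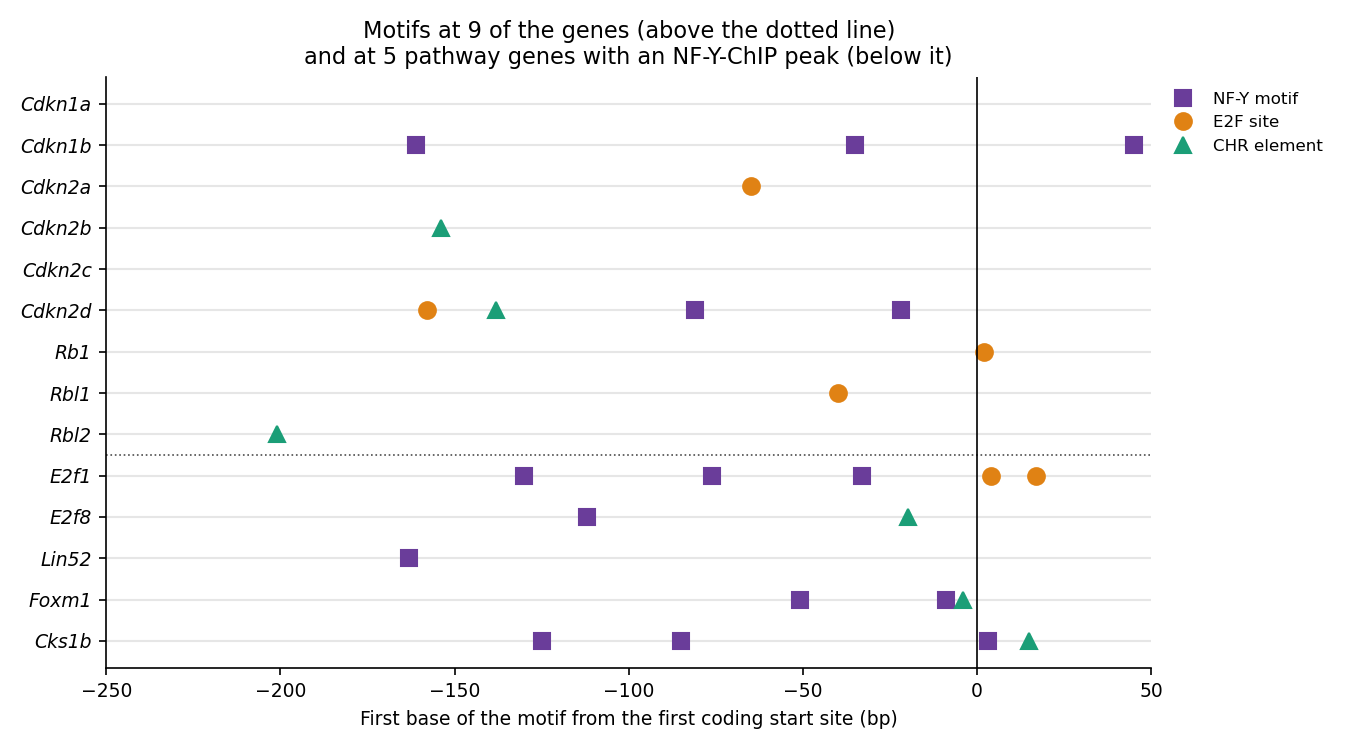
Positions of NF-Y motifs (squares), E2F sites (circles) and CHR elements (triangles) in bp from the first coding start site, for 9 of the 10 genes (above the dotted line, Cdkn1c left out) and 5 pathway genes with an NF-Y-ChIP peak (below it). Cdkn1b and Cdkn2d each carry 2 NF-Y motifs upstream of the start site without an NF-Y-ChIP peak, and E2f1, Foxm1 and Cks1b carry 2 or 3 there with one, whereas E2f8 and Lin52 carry 1.

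E2F sites and CHR elements, the latter bound by the MuvB complex, were searched in the same windows. An E2F site was present at 4 of the 10 genes, Cdkn2a, Cdkn2d, Rb1 and Rbl1, against 7.76% of marked protein-coding genes. Its first base was at −65 bp in Cdkn2a, from the Arf start site, −158 bp in Cdkn2d, 2 bp in Rb1 and −40 bp in Rbl1. A CHR was present at 3 of the 10 genes, Cdkn2b, Cdkn2d and Rbl2, against 42.3%. Cdkn2d was the member with all these motifs, in the order E2F site, CHR, CCAAT and ATTGG. These matches describe the reference sequence and are not evidence of binding.

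The rest of the pathway was examined in a list of 37 genes, which holds cyclins, CDKs, E2F and DP factors, MuvB subunits and other regulators of the G1/S and G2/M transitions. All 37 had an H3K4me3-ChIP peak by the gene rule and within 1 kb of a TSS. The highest fold enrichment within 1 kb of a TSS had a median of 43.5 over the list, against 32.1 over the 10 brakes and 39.9 over marked genes, and ranged from 14.5 to 81.8. The highest were Lin9 (81.8) and Rbbp4 (74.5), both MuvB subunits, and Ccna2 (70.4), the cyclin of S and G2 phase. Rb1 was thus within the upper part of this list, and Cdkn2b was below all of it.

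An NF-Y-ChIP peak was present by the gene rule at 5 of the 37 pathway genes, against 3.69% of protein-coding genes and 0 of the 10 brakes. All 37 were marked and 32 had CCAAT or ATTGG in a promoter window. Among marked protein-coding genes with such a box, the share with an NF-Y-ChIP peak was 7.96%. The list was also chosen with earlier results of these data known. The 5 genes were Cks1b (fold enrichment 6.64), E2f1 (6.43), Foxm1 (5.77), E2f8 (5.15) and Lin52 (4.86). Cks1b encodes a small CDK-binding protein, E2f1 an activating E2F, E2f8 a repressing one, Foxm1 a transcription factor of G2/M genes, and Lin52 a MuvB subunit. All were below the NF-Y-ChIP median of 6.75. The summits of E2f1, E2f8, Foxm1 and Cks1b lay within 104 bp of their own start sites, and that of Lin52 lay 306 bp upstream with its nearest TSS in Aldh6a1. Each of the 5 had 2 CCAAT boxes within 50 bp of the summit.

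Most pathway genes likewise had no NF-Y-ChIP peak. Of the 32 pathway genes without an NF-Y-ChIP peak, 27 had CCAAT or ATTGG in a promoter window, against 66.5% of marked protein-coding genes. They included the mitotic genes Ccnb1, Ccnb2 and Cdk1, named here after their values were seen, whose windows held at most 2, 3 and 3 boxes and which are well known as NF-Y targets. Whether NF-Y was bound there below the threshold was not tested.

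**Figure D4:**
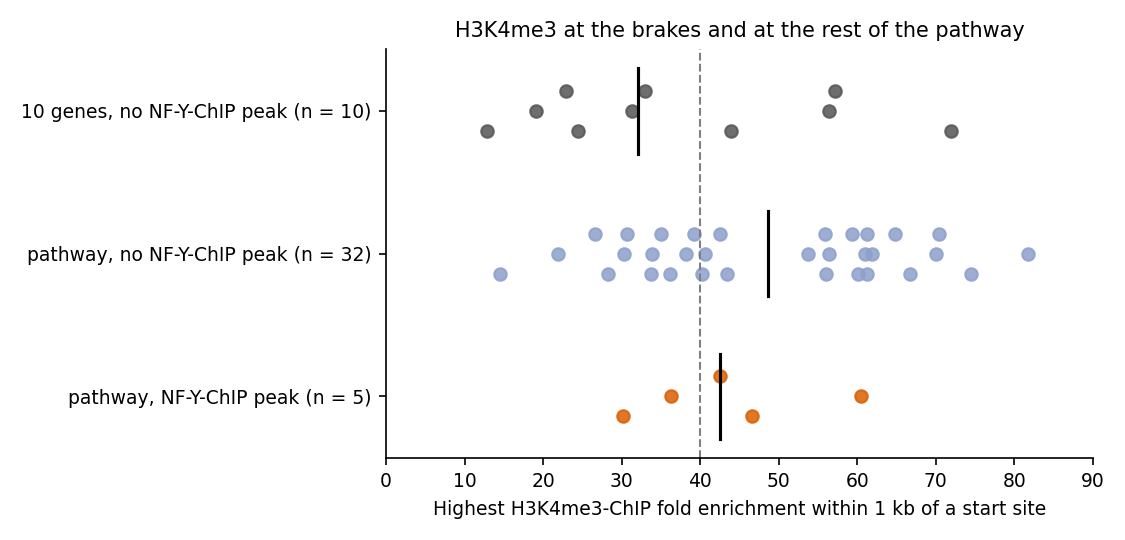
Highest H3K4me3-ChIP fold enrichment within 1 kb of a start site, 1 point per gene, for the 10 brakes, 32 pathway genes without and 5 with an NF-Y-ChIP peak, with the median of each set (black bar) and of all marked protein-coding genes (dashed line). The medians were 32.1, 48.6 and 42.6, and the sets overlapped widely.

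The tissue label was checked against marker genes in the H3K4me3-ChIP list. Cortical markers had a peak within 1 kb of a TSS, among them Emx1 (fold enrichment 41.0), Pax6 (38.3) and Sox2 (30.1), with the weakest at Neurod6 (4.61), and so did all 3 markers of the ventral telencephalon, Dlx2 (47.0), Gsx2 (15.1) and Nkx2-1 (6.64). The value of Dlx2 was above those of Emx1, Pax6 and Sox2. None of the 3 blood, 3 microglial and 5 other tissue markers had one, and of 3 endothelial markers Kdr did (30.2). The part of other cell types in the marks of the 10 genes was not tested.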

How the data were processed

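Cortical chromatin from mouse embryos at E13.5 gave 3 libraries: input, NF-Y-ChIP and H3K4me3-ChIP. The authors quality-trimmed the reads (Trimmomatic), mapped them to mm10, which is GRCm38, with Bowtie 2, and ran MACS2 with a limit of p < 0.001 in NF-Y-ChIP but q < 0.05 in H3K4me3-ChIP. The submitters' processing notes name Bowtie2 2.2.8 and MACS2 2.1.2. The study names the input as a negative control for ChIP, and whether MACS2 was run against it is not given in the sources used here. The deposited fold enrichment is a ratio of the summit signal to the local background. Deposited −log10 columns hold the p-value and q-value of each peak. As a display score, the authors' files hold the −log10 p-value (733 NF-Y-ChIP peaks) or q-value (18816 H3K4me3-ChIP peaks) multiplied by 10 and rounded down. The lists carry no antibody name, and the labels do not assign them. Each was taken as NF-Y-ChIP or H3K4me3-ChIP from an assignment supplied with the data, together with the p or q limit in the methods and the statistic behind this score. Values were used as deposited.

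Genes and start sites came from GENCODE M21, with all transcripts used and mitochondrial genes left out. Positions are 1-based on GRCm38, and all chromosome names and ends of the lists fitted the GRCm38.p6 reference, from which sequences were read. An overlap of 1 bp sufficed. A protein-coding gene is called marked when H3K4me3-ChIP gave a peak no farther than 1 kb from any of its start sites. The named genes were the 10 members and genes with a start site nearest to their peaks. Among the pathway genes they were those with an NF-Y-ChIP peak and the 3 with the highest H3K4me3-ChIP fold enrichment. Other pathway genes are marked as named later. Aldh6a1 was named for its start site nearest to the Lin52 peak. Markers came from lists by cell type, of which only some genes are named. The members, lists and alternatives were chosen with earlier results of these data known. With 1 library per antibody, no test was made. The functions were tested on simulated data, where 1000 of 1000 genes received the right call and 600 of 600 added motifs were found. Software was Python 3.11.15 with pysam 0.24.0, pandas 2.3.3, NumPy 2.4.6, SciPy 1.17.1 and matplotlib 3.10.9, and samtools 1.23.1. A marker gene and an upstream sequence are not reported here.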

Additional observations from a re-analysis of the deposited data

How the results depend on the processing

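The count of 0 NF-Y-ChIP peaks was the same with 50 kb upstream and, for summits near a TSS, with a limit of 2 kb. The narrower rules and stricter thresholds run could not have raised it. When the H3K4me3-ChIP list was limited to its upper 50% in fold enrichment, 6 of the 10 genes had a peak by the gene rule and 6 had one within 1 kb of a TSS, against 46.9% and 45.1% of protein-coding genes under the same limit, since Cdkn1a, Cdkn1c, Cdkn2a and Cdkn2b lie in the weaker part of the list. CCAAT or ATTGG was present at 4 genes with windows from 200 bp upstream to the TSS (58.8% of marked genes), at 8 from 1 kb upstream (91.3%), at 3 with the window at the 5′ end of the gene record only (38.1%) and at 3 with the extended consensus (22.6%). With the upper 50%, the median fold enrichment rose from 32.1 over 10 genes to 50.1 over the remaining 6, against 47.0 for marked genes and 50.2 for the pathway list. That limit acts on fold enrichment itself and removes the 4 lowest genes, so these medians are fixed by it in part and do not bear on the order of the sets. The median covered length was 1668 bp over all 10 genes, those without a peak taken as 0, and 2216 bp over the 6. The other alternatives gave fold enrichment medians of 32.1 and 32.9 and covered lengths of 2111 and 2309 bp, and pathway counts moved by at most 2. The share of NF-Y-ChIP peaks of members with a CCAAT box could not be given, as there was no such peak. No paired analysis was possible because each antibody has 1 library.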
